A study of Mus musculus with 19 samples.

Results

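Calprotectin and neutrophil granule genes were followed here through 10 genes taken by symbol from the gene count table: S100a8, S100a9, Retnlg, Ngp, Camp, Ltf, Lcn2, Csf3r, Cxcr2 and Mmp8. All 10 were among the 25239 genes of the table. The table covers 19 RNA sequencing libraries of mouse heart tissue in 4 groups: Mcm8 knockout (Mcm8-/-) hearts after LCWE (n = 5), Mcm8 knockout hearts after PBS (n = 3), wild-type hearts after LCWE (n = 6) and wild-type hearts after PBS (n = 5). LCWE is a cell wall extract of Lactobacillus casei that brings on coronary vasculitis in mice and serves as a model of Kawasaki disease, and PBS is the vehicle. Mcm8 encodes a helicase of DNA repair, and the study asked what its loss does to the vessels in that model. The labels used here give neither the strain, age, dose and time after injection nor the knockout allele, and they do not say whether the libraries came from separate animals, so p-values measure the spread between these libraries only.

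Neutrophils are short-lived white blood cells that leave the bone marrow already loaded with antimicrobial proteins. S100A8 and S100A9 are small calcium-binding proteins that pair to form calprotectin, which fills the neutrophil cytosol, starves microbes of zinc and manganese and is released as an alarm signal at sites of inflammation. Ngp, Camp (cathelicidin), Ltf (lactoferrin) and Lcn2 (the siderophore-binding lipocalin 2) encode proteins of the specific granules, and Mmp8 encodes neutrophil collagenase. Retnlg encodes a secreted resistin-like protein that marks mature mouse neutrophils. Csf3r is the receptor for G-CSF, the growth factor of neutrophils, and Cxcr2 is the chemokine receptor that draws them out of the blood. Granule messages are made chiefly in the marrow and are carried at a declining level by neutrophils that have left it. Calprotectin messages are also made by monocytes, and Lcn2 by epithelium, by endothelium and by cardiomyocytes under stress.

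By the GENCODE M21 annotation of the mouse build GRCm38, S100a8 (chr3:90668978-90670035, plus strand) and S100a9 (chr3:90692632-90695721, minus strand) lie 22.6 kb apart within the S100 cluster. Camp, Ngp and Ltf lie in that order on chromosome 9, with 570 kb between Camp and Ngp and 596 kb between Ngp and Ltf. None of the 10 genes overlapped another annotated gene. The letters before the transcription starts of 5 of the genes are shown because S100a8, S100a9, Ngp and Ltf varied together across the libraries while Lcn2 did not. Each run is the 250 bases before the RefSeq start in GRCm38.p6, read 5′ to 3′ on the strand of the gene. Capitals mark the C/EBP half-palindrome TTGCNNAA, the PU.1/ETS motif GAGGAAG and TATAAA, each on either strand.
S100a8: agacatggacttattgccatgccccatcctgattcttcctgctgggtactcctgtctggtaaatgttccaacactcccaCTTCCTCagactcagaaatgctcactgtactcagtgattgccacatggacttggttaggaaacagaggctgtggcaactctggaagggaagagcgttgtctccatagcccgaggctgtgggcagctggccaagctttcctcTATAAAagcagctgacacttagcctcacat
S100a9: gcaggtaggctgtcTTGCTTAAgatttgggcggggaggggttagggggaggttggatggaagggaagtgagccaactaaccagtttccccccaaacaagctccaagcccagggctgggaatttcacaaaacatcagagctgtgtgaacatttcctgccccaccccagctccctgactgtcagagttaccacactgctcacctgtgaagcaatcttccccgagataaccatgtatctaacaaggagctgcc
Ngp: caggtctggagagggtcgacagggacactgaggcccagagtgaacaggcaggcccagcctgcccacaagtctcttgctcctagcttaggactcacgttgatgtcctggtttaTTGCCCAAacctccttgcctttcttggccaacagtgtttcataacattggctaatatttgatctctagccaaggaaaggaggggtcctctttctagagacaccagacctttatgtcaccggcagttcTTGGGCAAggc
Ltf: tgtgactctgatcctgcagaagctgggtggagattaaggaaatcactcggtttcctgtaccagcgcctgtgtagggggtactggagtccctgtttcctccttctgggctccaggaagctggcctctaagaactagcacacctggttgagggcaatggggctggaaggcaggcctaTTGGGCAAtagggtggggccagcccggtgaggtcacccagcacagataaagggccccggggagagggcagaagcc
Lcn2: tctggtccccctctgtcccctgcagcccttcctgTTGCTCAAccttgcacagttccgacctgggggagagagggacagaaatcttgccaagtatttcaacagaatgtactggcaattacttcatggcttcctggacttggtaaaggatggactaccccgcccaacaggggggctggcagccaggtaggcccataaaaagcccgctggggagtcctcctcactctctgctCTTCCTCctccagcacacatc
These windows are chr3:90668821-90669070 for S100a8, chr3:90695722-90695971 for S100a9, chr9:110419558-110419807 for Ngp, chr9:111019042-111019291 for Ltf and chr2:32387740-32387989 for Lcn2. RefSeq and GENCODE starts differ: by GENCODE M21 the windows of S100a8, Ngp and Ltf reach into the gene. The Lcn2 window lies wholly inside its gene there (chr2:32384633-32388252, minus strand). Over windows that also take in the 50 bases after the start, 300 bases in all, TTGCNNAA was present for 6 of the 10 genes (S100a9, Retnlg, Ngp, Ltf, Lcn2 and Mmp8) and in 10.8% of 32851 mouse promoter windows of that length. Ngp held it in 2 places, 138 and 11 bases before the start. GAGGAAG was present for 4 of the 10 genes and TATAAA for 3, and each was present in 13.6% of all windows. C/EBP epsilon and PU.1 are transcription factors of the granulocyte line, and a match is a description of the letters only.

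Libraries held 11853233 to 16145911 counts. Levels are CPM values, with library sizes adjusted by the TMM factors of edgeR, at which 3 counts, the limit a count of 0 allows for counting error only, correspond to 0.200 to 0.250 CPM in the libraries with such a 0. Mcm8 itself lay at 0.130 to 0.910 CPM in the 8 knockout libraries and at 2.60 to 5.19 CPM in the 11 wild-type libraries, so the genotype labels fit the counts. Cardiomyocyte markers were high in every library, from 74136 to 112985 CPM summed over 7 genes. Markers of other tissues varied widely between libraries: 6 liver genes summed to 2.92 to 470 CPM and 6 epithelial genes to 1.02 to 44.5 CPM. The part of such tissue in the levels of the genes described here was not tested. Some markers of blood cells had no counts: 4 globin genes of the alpha and beta clusters were listed at 0 in all 19 libraries. The eosinophil and basophil genes Epx, Ear6 and Mcpt8 were also at 0. Others of the same lists were counted: the erythroid gene Alas2 averaged 18.5 CPM. Prg2, Siglecf and Ccr3 had 34, 9 and 7 counts over the 19 libraries. Why the globin genes were at 0 was not tested. The neutrophil surface gene Ly6g reached 39 counts over all 19 libraries together. One library, replicate 4 of the knockout LCWE group, stood apart in the genes described here, and edgeR fold changes of several of them are given with and without it. Other values, among them the rho values, marker sums and DESeq2 calls, are given with it only.

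After LCWE the calprotectin genes and Retnlg were higher than after PBS when the effect was averaged over both genotypes, by 3.26 to 3.44 on the log2 scale, and these were the members that passed the test. The specific granule genes Ngp, Ltf and Camp lay higher in most LCWE libraries with a very wide spread and did not pass. Lcn2, which is counted with them as a granule gene, did not follow the others, and 2 of its 3 highest libraries were knockout hearts given PBS. Knockout and wild type did not differ beyond the spread between libraries for any of the 8 genes with enough counts to test. Within each LCWE group the libraries were far apart.

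**Figure D1:**
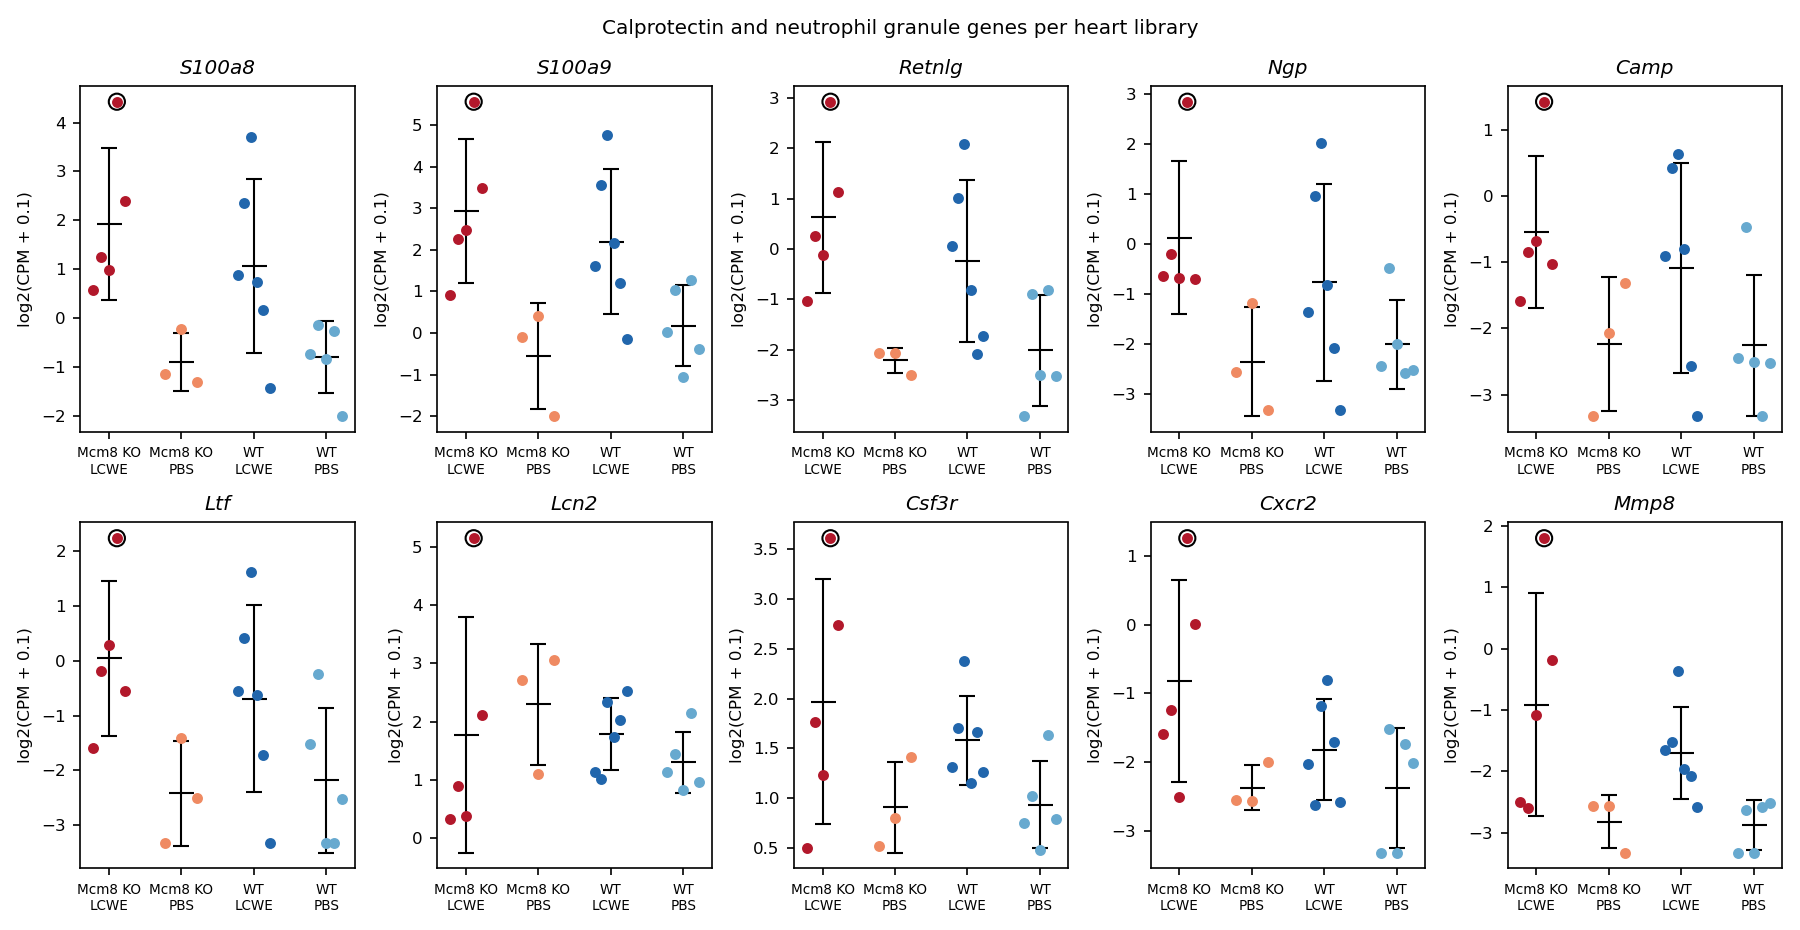
Level of each of the 10 genes, as log2(CPM + 0.1), in every library of the 4 groups, with the mean and SD of each group in black and replicate 4 of the knockout LCWE group ringed. The ringed library is the highest of 19 in all 10 panels, and the LCWE groups spread much more widely than the PBS groups in the calprotectin panels.

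S100a8 measured 1.39, 2.27, 1.87, 21.4 and 5.14 CPM in the 5 knockout LCWE hearts, against 0.350, 0.754 and 0.301 CPM in the 3 knockout PBS hearts. In wild type it ran over 0.270, 1.66 and 12.9 CPM (lowest, median and highest of 6) after LCWE, against 0.501, 0.810, 0.456, 0.734 and 0.148 CPM after PBS. Every knockout LCWE library lay above every knockout PBS library, and in wild type only replicate 6 of the LCWE group, with 4 counts, lay within the PBS range. Across both genotypes 10 of 11 LCWE libraries exceeded all 8 PBS libraries. As group means the order was 6.42 ± 8.51 CPM in knockout LCWE hearts, 3.76 ± 4.78 CPM in wild-type LCWE hearts, 0.530 ± 0.261 CPM in wild-type PBS hearts and 0.469 ± 0.249 CPM in knockout PBS hearts (SD). The LCWE groups did not differ from each other beyond their spread, and neither did the PBS groups.

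S100a9, the partner gene, was read more often. It measured 1.78, 4.67, 5.47, 46.96 and 11.1 CPM in knockout LCWE hearts, against 0.840, 1.23 and 0.151 CPM in knockout PBS hearts. Wild-type hearts gave 0.811, 3.69 and 27.0 CPM (lowest, median and highest of 6) after LCWE, against 0.918, 1.93, 0.380, 2.34 and 0.668 CPM after PBS. The knockout groups did not overlap, while in wild type the LCWE and PBS ranges shared values up to 2.34 CPM. Per kilobase of annotated exon S100a9 was also the highest of the 10 genes, at a mean of 12.9 CPM per kb over the 19 libraries, followed by S100a8 at 4.45, Lcn2 at 1.91 and Retnlg at 1.88 CPM per kb, with Cxcr2 lowest at 0.104 CPM per kb.

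The subunits kept a similar ratio. Summed over the libraries of a group, S100a9 had 1032 counts to 473 of S100a8 in knockout LCWE hearts, a ratio of 2.18, and 32 to 20 in knockout PBS hearts, a ratio of 1.60. Wild-type hearts had 647 to 296 counts after LCWE, a ratio of 2.19, and 91 to 38 after PBS, a ratio of 2.39. Over single libraries the ratio ran from 0.556, where it rested on 2 and 4 counts, to 3.80, where it rested on 9 and 2. In none of 4 comparisons of groups did the log2 ratio differ beyond the spread between libraries by a two-sided exact permutation test, with p from 0.286 to 0.810 and adjusted p from 0.643 to 0.810 over the 4. The smallest p these designs allow is 0.00216 for the comparisons with 5 and 6 libraries and 0.0179 for those with 5 and 3.

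Retnlg followed calprotectin at a lower level. Knockout LCWE hearts had 5, 17, 11, 111 and 32 counts, or 0.386 to 7.52 CPM, against 2, 2 and 1 counts in knockout PBS hearts, at most 0.140 CPM. Wild-type LCWE hearts ran over 0.137, 0.707 and 4.17 CPM (lowest, median and highest of 6), against 0, 7, 1, 7 and 1 counts in wild-type PBS hearts, at most 0.467 CPM. The knockout groups were again apart, and 8 of 11 LCWE libraries lay above every PBS library. The level of 1 PBS heart with no Retnlg count is at most 0.250 CPM by the limit of 3 counts.

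Among the specific granule genes Ngp was read most in LCWE hearts, after Lcn2. It had 7, 12, 7, 105 and 8 counts in knockout LCWE hearts, against 1, 5 and 0 counts in knockout PBS hearts. In wild type the LCWE hearts had 4, 30, 47, 6, 2 and 0 counts, against 1, 10, 2, 1 and 1 counts in PBS hearts. The knockout groups did not overlap in CPM, 0.521 to 7.11 after LCWE against at most 0.343 after PBS, but 4 of the 5 LCWE values lay between 0.521 and 0.779 CPM. In wild type the PBS library with 10 counts lay above 4 of the 6 LCWE libraries.

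Ltf had 3, 12, 15, 68 and 9 counts in knockout LCWE hearts, against 0, 4 and 1 counts in knockout PBS hearts. Wild-type LCWE hearts had 8, 20, 35, 7, 3 and 0 counts, against 3, 12, 0, 0 and 1 counts in wild-type PBS hearts. Camp, whose product is cleaved to the antimicrobial peptide CRAMP in mice, had 3, 7, 7, 38 and 6 counts in knockout LCWE hearts, against 0, 2 and 4 counts in knockout PBS hearts, and in wild type 6, 20, 17, 6, 1 and 0 counts after LCWE against 1, 10, 1, 0 and 1 counts after PBS. Both genes overlapped between LCWE and PBS in each genotype. Mmp8 was scarcer still, with 69 counts in knockout LCWE hearts together, 50 of them in replicate 4, against 2 counts in knockout PBS hearts, and with 20 counts in wild-type LCWE hearts against 3 counts in wild-type PBS hearts. No PBS library held more than 1 count of Mmp8, and 9 of 11 LCWE libraries lay above all of them in CPM.

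Lcn2 went its own way. It measured 1.16, 1.75, 1.20, 35.4 and 4.23 CPM in knockout LCWE hearts, against 6.51, 2.06 and 8.21 CPM in knockout PBS hearts. Wild-type hearts gave 1.92, 3.59 and 5.68 CPM (lowest, median and highest of 6) after LCWE, against 2.09, 2.62, 1.67, 4.34 and 1.86 CPM after PBS. Apart from replicate 4, no knockout LCWE library reached the knockout PBS mean of 5.59 ± 3.18 CPM (SD, n = 3). Of the 11 LCWE libraries 1 lay above and 2 lay below every PBS library. The knockout against wild type difference under PBS was 1.14 ± 0.91 on the log2 scale (SE) and did not pass (edgeR adjusted p = 0.4997).

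The G-CSF receptor gene Csf3r differed less between treatments. Its level was 1.31, 3.31, 2.25, 12.1 and 6.57 CPM in knockout LCWE hearts, against 1.33, 1.65 and 2.56 CPM in knockout PBS hearts. In wild type it was 3.02 ± 1.10 CPM after LCWE (n = 6), against 1.89 ± 0.662 CPM after PBS (SD, n = 5). Cxcr2 had 3, 5, 1, 34 and 14 counts in knockout LCWE hearts, against 1, 1 and 2 counts in knockout PBS hearts, and in wild type 1 to 6 counts after LCWE against 0 to 4 counts after PBS. Both receptor genes overlapped between the treatments in each genotype.

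Across all genes the comparison of LCWE with PBS was fitted in 1 edgeR quasi-likelihood model of the 4 groups over 14301 genes with enough counts, with p-values adjusted by Benjamini-Hochberg over all of them and a threshold of 0.05. Of the 10 genes 8 entered the test, and Cxcr2 and Mmp8 were too low. Averaged over both genotypes, 3 of the 8 rose, against 1.35% of all tested genes. S100a8 rose by 3.26 ± 0.78 (SE, edgeR adjusted p = 0.0397), S100a9 by 3.44 ± 0.84 (edgeR adjusted p = 0.0419) and Retnlg by 3.36 ± 0.81 (edgeR adjusted p = 0.0397) on the log2 scale. Values for the others were 3.02 ± 0.94 for Ngp, 2.76 ± 0.88 for Ltf, 2.08 ± 0.78 for Camp, 1.07 ± 0.35 for Csf3r and 0.59 ± 0.60 for Lcn2, with edgeR adjusted p from 0.0736 to 0.572. Without replicate 4 of the knockout LCWE group the same 3 passed, against 284 of 14220 tested genes called in either direction, at 2.63 ± 0.64, 2.80 ± 0.70 and 2.81 ± 0.72, while Lcn2 stood at -0.44 ± 0.32.

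These 3 calls were close to the threshold. All 3 were lost on leaving out any of 12 of the 19 libraries: each of the 5 wild-type PBS libraries, replicates 1 and 3 of knockout PBS, replicates 1, 2 and 3 of wild-type LCWE, or replicates 3 and 5 of knockout LCWE. Their adjusted p by edgeR then reached at most 0.148. Over the 19 fits that left out 1 library, the number of all genes called ran from 0 to 2847. Ngp and Ltf passed as well without replicate 2 of knockout PBS (6 genes in all, against 19.6% of all tested genes) or without replicate 6 of wild-type LCWE (5 in all, against 4.65%). DESeq2 called 7 of the 10, with Ngp, Ltf, Csf3r and Mmp8 added, against 6.67% of all genes, and limma-voom called 0. The sign of the average effect of LCWE was positive for S100a8, S100a9, Retnlg, Ngp, Ltf, Camp and Csf3r in each of these fits in which they were tested.

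**Figure D2:**
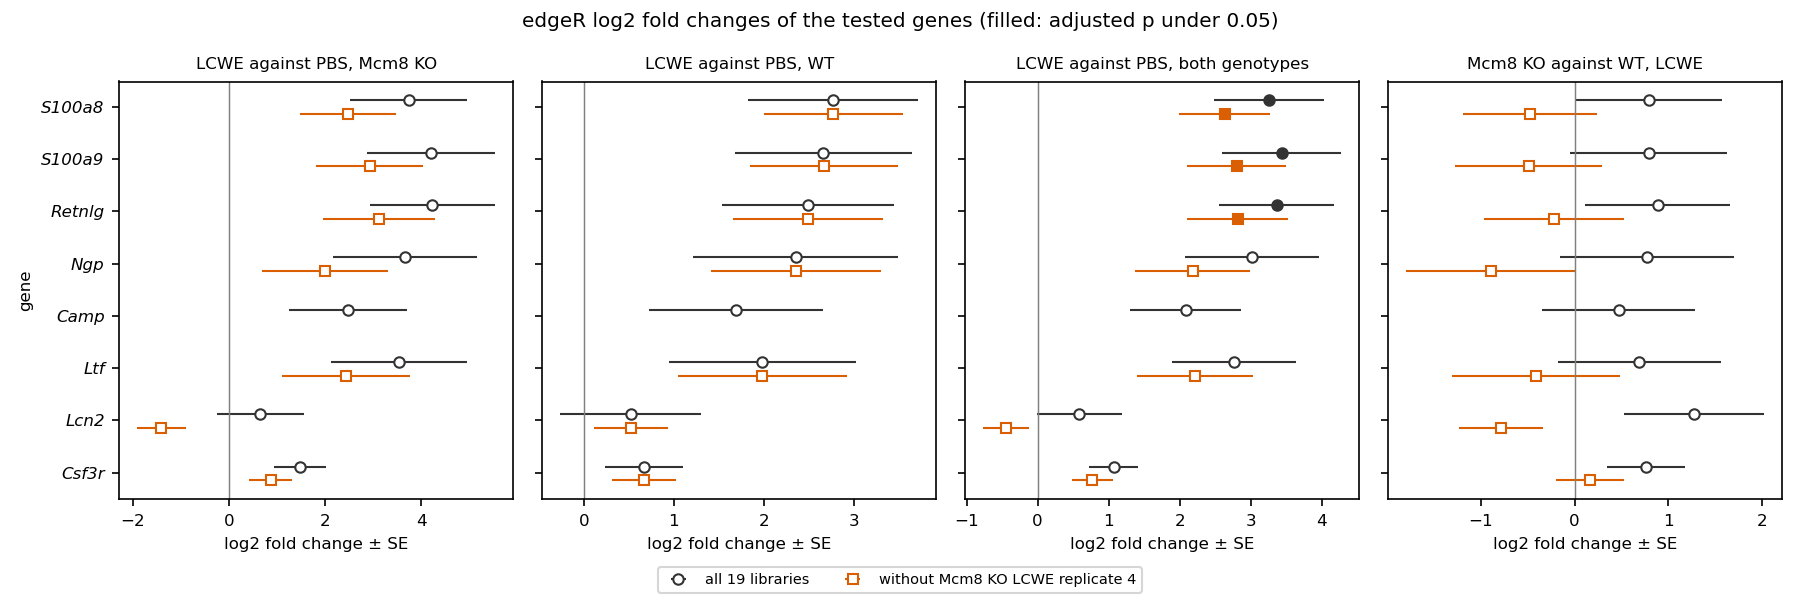
Log2 fold changes ± SE from the edgeR fit for the 8 tested genes in 4 comparisons, with all 19 libraries (circles) and without replicate 4 of the knockout LCWE group (squares, where Camp was too low to test); filled symbols have an adjusted p under 0.05. Filled symbols appear for S100a8, S100a9 and Retnlg in the comparison over both genotypes, and squares lie left of 0 for Lcn2 in the panels of the knockout and of both genotypes and for 6 genes in the comparison of knockout with wild type under LCWE.

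Within the knockout hearts alone 0 of the 8 passed, against 2.90% of all tested genes, or 0.818% counted higher. Their log2 fold changes for LCWE over PBS were 4.24 ± 1.30 for Retnlg, 4.21 ± 1.34 for S100a9, 3.74 ± 1.22 for S100a8, 3.67 ± 1.495 for Ngp and 3.54 ± 1.41 for Ltf. Camp gave 2.48 ± 1.23, Csf3r 1.47 ± 0.54 and Lcn2 0.65 ± 0.91. At an unadjusted p under 0.05 the edgeR fit counted 6 of the 8, against 23.4% of all tested genes. DESeq2 called 4 (S100a8, S100a9, Retnlg and Ngp), against 6.29% of all genes, and limma-voom called 0. Without replicate 4 of the LCWE group the values were 3.13 ± 1.17 for Retnlg, 2.93 ± 1.11 for S100a9 and 2.49 ± 0.998 for S100a8, and Lcn2 turned to -1.41 ± 0.50. Ngp then stood at 2.01 ± 1.31, Ltf at 2.44 ± 1.34 and Csf3r at 0.87 ± 0.45. Without replicate 3 of the wild-type LCWE group, S100a8 and Retnlg passed in the knockout (edgeR adjusted p = 0.0471 and 0.0459), where 5.19% of all tested genes were called, against 2.90% with that library. Every LCWE library lay above every PBS library for 4 of the genes, S100a8, S100a9, Retnlg and Ngp, which held for 4.91% of all tested genes.

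Within wild-type hearts the fold changes were smaller in value and 0 of the 8 passed, as did 0 of all 14301 genes. They were 2.77 ± 0.95 for S100a8, 2.67 ± 0.98 for S100a9, 2.49 ± 0.96 for Retnlg, 2.36 ± 1.14 for Ngp, 1.98 ± 1.04 for Ltf, 1.69 ± 0.97 for Camp, 0.67 ± 0.44 for Csf3r and 0.52 ± 0.79 for Lcn2. At an unadjusted p under 0.05 the edgeR fit counted 3 of the 8 and 892 of all genes (6.24%), and DESeq2 and limma-voom each called 0 of the genes described here. Replicates 5 and 6 of the wild-type LCWE group had 15 and 4 counts of S100a8, next to 152 in replicate 3. The difference between the genotypes in the LCWE effect was tested as an interaction, which called 0 of the 8 and 0 of all genes, with 0 of the 8 and 1145 of all (8.01%) at an unadjusted p under 0.05 in the edgeR fit and 0 of the 8 by DESeq2. The fold changes in each genotype compare separate libraries, but their SE and p-values come from the model of all 19 libraries. The effect averaged over both genotypes also rests on all 19. With only the knockout groups fitted, edgeR called 0 of all tested genes for LCWE in the knockout, against 415 in the model of all 19.

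Sample numbers in the labels fall into ranges, and the labels do not say what the numbers mean. Numbers from 100 to under 200 cover 3 knockout LCWE libraries, 1 knockout PBS library, 3 wild-type LCWE libraries and 4 wild-type PBS libraries. Within this range and in wild type, S100a8 was 6.56 ± 5.75 CPM after LCWE (n = 3), against 0.625 ± 0.173 CPM after PBS (SD, n = 4). There 4 members passed, against 8.28% of all tested genes: S100a8 at 3.30 ± 0.55 (edgeR adjusted p = 0.0130), Retnlg at 3.09 ± 0.73 (edgeR adjusted p = 0.0291), Ngp at 2.98 ± 0.80 (edgeR adjusted p = 0.0420) and S100a9 at 3.23 ± 0.79 (edgeR adjusted p = 0.0449). In knockout hearts of the range S100a8 was 1.85 ± 0.441 CPM after LCWE (n = 3) and 0.350 CPM in the single PBS library. Lcn2 was 1.37 ± 0.332 CPM after LCWE (SD, n = 3) and 6.51 CPM in that PBS library. With the lone PBS library assumed to vary like the other groups, the fit called 27.1% of all tested genes for LCWE in the knockout and 30.7% for LCWE over both genotypes. Lcn2, lower after LCWE, was called in both, and S100a8, S100a9, Retnlg, Ngp, Camp and Ltf, all higher, over both genotypes. These calls rest on 1 knockout PBS library. With the range as a covariate over all 19 libraries, 0 of the 8 passed in any comparison. Numbers under 100 hold no wild-type PBS library and numbers of 200 and above hold no knockout LCWE library, so neither range gives a value for all groups.

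Mcm8 loss was not accompanied by a detectable difference in these genes. Under LCWE the knockout mean was above the wild-type mean for all 10 genes, but 0 of the 8 tested passed, against 0.00699% of all tested genes (1 gene). S100a8 stood at 0.79 ± 0.78 and S100a9 at 0.79 ± 0.83 on the log2 scale, knockout over wild type. The widest value of the 8 was 1.27 ± 0.75 for Lcn2 (edgeR adjusted p = 0.901). With no filter on low counts Mmp8 stood at 1.92 ± 0.76 and Cxcr2 at 1.86 ± 0.72. Neither passed (edgeR adjusted p = 0.880 for each). Without replicate 4 the value was below 0 for 6 of the 7 genes still tested, with S100a8 at -0.47 ± 0.71, S100a9 at -0.49 ± 0.78, Ngp at -0.89 ± 0.90 and Lcn2 at -0.79 ± 0.44, and above 0 for Csf3r, at 0.16 ± 0.36. The other 4 knockout LCWE libraries also averaged above the wild-type LCWE hearts for Cxcr2, at 0.386 CPM against 0.215 CPM, and for Mmp8, at 0.324 CPM against 0.251 CPM. Within the number range from 100 to under 200 all 8 were below 0, with S100a8 at -1.79 ± 0.55 (edgeR adjusted p = 0.243). Under PBS 0 of the 8 passed, against 0.601% of all tested genes, and averaged over both treatments 0 of the 8 passed, against 0.0140%. In these 3 comparisons the edgeR fit counted 0 of the 8 at an unadjusted p under 0.05. Of all 14301 tested genes it counted 794 under LCWE, 2817 under PBS and 2956 averaged over both treatments. DESeq2 and limma-voom each called 0 of the genes described here.

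Replicate 4 of the knockout LCWE group was the highest of the 19 libraries for 10 of the 10 genes. It held from 21.3% (Csf3r) to 53.2% (Mmp8) of all counts of a gene over the 19 libraries, and 38.2% for S100a8. The other 4 libraries of its group had S100a8 at 2.67 ± 1.69 CPM and Lcn2 at 2.09 ± 1.46 CPM (SD, n = 4), next to 21.4 and 35.4 CPM in replicate 4. For 6 of the 10 genes, S100a8, S100a9, Retnlg, Ngp, Camp and Ltf, the second highest library was replicate 3 of the wild-type LCWE group. Replicate 4 was above that library by a ratio of 1.55 (Ltf) to 1.81 (Retnlg) in those 6 genes. For Lcn2 the second was replicate 3 of the knockout PBS group at 8.21 CPM, and there the ratio was 4.32.

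**Figure D3:**
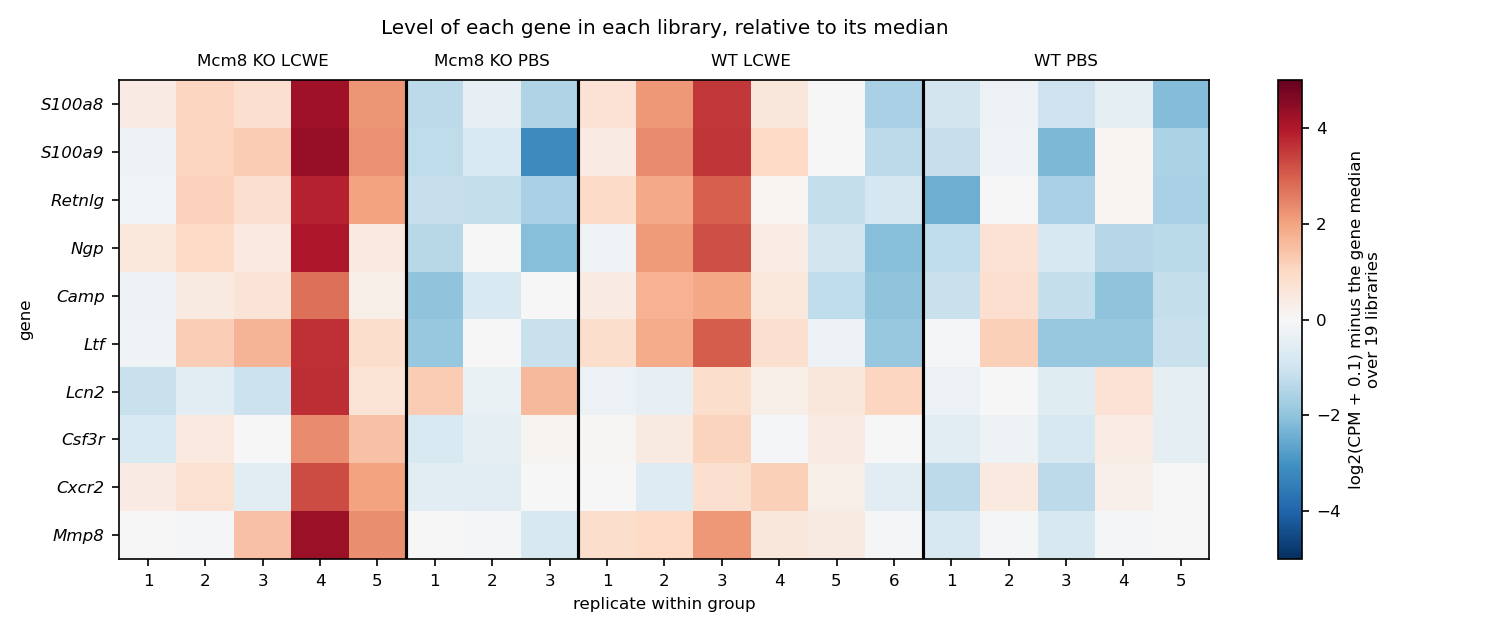
Log2(CPM + 0.1) of each of the 10 genes (rows) in each of the 19 libraries (columns, by group and replicate), minus the median of the gene over all libraries; red is above the median and blue below. Replicate 4 of the knockout LCWE group and replicate 3 of the wild-type LCWE group are red through the upper 6 rows, replicate 6 of the wild-type LCWE group is blue there, and the Lcn2 row is red in 2 of the 3 knockout PBS libraries.

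Across the 19 libraries the 6 genes S100a8, S100a9, Retnlg, Ngp, Camp and Ltf rose and fell together, with Spearman's rho from 0.707 to 0.953 over the 15 pairs and a median of 0.865 on log2 CPM. With the group means taken out the median was 0.709. Csf3r had a median rho of 0.630 with those 6, and Lcn2 a median of -0.0457, from -0.251 to 0.154. These values are descriptions over libraries that share 1 table, its scaling and 4 groups, and at counts this low they carry counting noise.

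**Figure D4:**
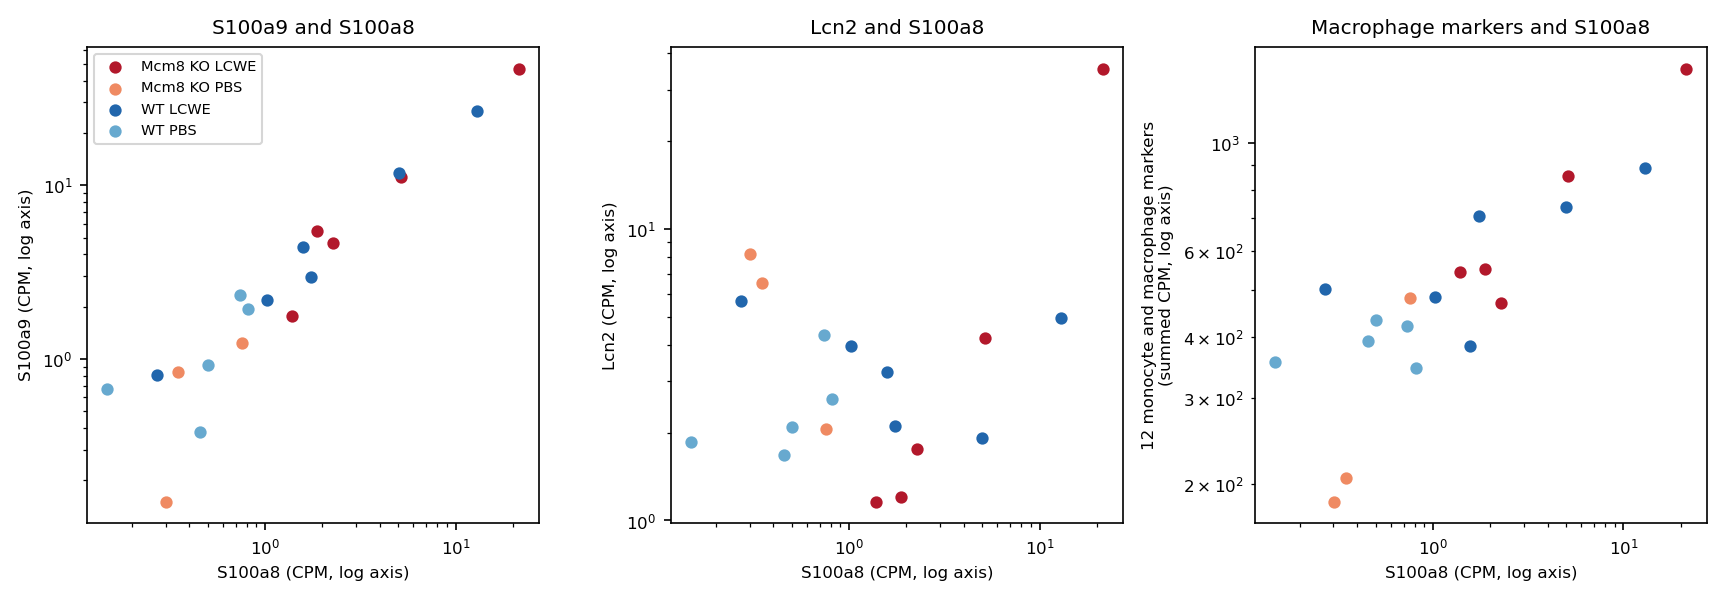
S100a9 (left), Lcn2 (middle) and the summed level of 12 monocyte and macrophage markers (right) against S100a8 in each of the 19 libraries, all in CPM on log axes, coloured by group. S100a9 rises along a line with S100a8, Lcn2 shows no such line apart from the single library at 21.4 CPM of S100a8, and the macrophage sum rises with S100a8.

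Other genes of neutrophils were followed in a list of 36 granule and mature neutrophil genes, of which 35 were in the table and 19 were tested. Averaged over both genotypes 3 of the 19 rose, against 1.35% of all tested genes, and 0 fell, and 17 lay above 0 with a median of 0.94 on the log2 scale, beside 51.9% above 0 and a median of 0.01 over all tested genes. The 3 were the formyl peptide receptor genes Fpr1 (3.16 ± 0.74, edgeR adjusted p = 0.0370) and Fpr2 (3.18 ± 0.58, edgeR adjusted p = 0.0171), which sense bacterial and mitochondrial peptides, and the integrin gene Itgam (1.35 ± 0.29, edgeR adjusted p = 0.0295), shared with monocytes and macrophages. They were also the 3 that rose in the knockout alone, Fpr1 by 4.62 ± 1.23, Fpr2 by 3.54 ± 0.89 and Itgam by 1.72 ± 0.45. The Fpr1 value rests on a very low PBS level, 0.0467 ± 0.0808 CPM in knockout PBS hearts against 1.36 ± 1.42 CPM in knockout LCWE hearts (SD). Without replicate 1 of knockout PBS it became 7.29 ± 2.01. Fpr2 averaged 1.20 ± 0.719 CPM in knockout LCWE hearts and 0.0969 ± 0.0841 CPM in knockout PBS hearts, and 0.669 ± 0.435 CPM in wild-type LCWE hearts against 0.0831 ± 0.121 CPM in wild-type PBS hearts (SD). On leaving out each library in turn the averaged call was lost in 10 of 19 fits for Fpr1 (adjusted p up to 0.130), in 7 for Itgam (up to 0.133) and in 1 for Fpr2, which was without replicate 1 of knockout PBS (0.0662). The calls in the knockout alone were lost in 15, 16 and 7 of the 19 fits for Fpr1, Itgam and Fpr2 (adjusted p up to 0.321 by edgeR). With only the knockout groups fitted, none of the 3 was called.

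G0s2, an inhibitor of fat breakdown that is abundant in neutrophils and also in heart muscle, went the other way. It fell by 1.53 ± 0.36 on the log2 scale after LCWE in the knockout (edgeR adjusted p = 0.0365), to 64.7 ± 27.2 CPM against 187 ± 115 CPM after PBS (SD, n = 5 and 3). Under PBS it was higher in knockout than in wild type, at 187 ± 115 CPM against 54.6 ± 6.91 CPM (log2 difference 1.77 ± 0.36, edgeR adjusted p = 0.0397). Both comparisons use the same 3 knockout PBS libraries. Leaving out a library ended the first call in 6 of 19 fits and the second in 11. Replicates 1 and 3 of knockout PBS were among those libraries in both. With only the knockout groups fitted, the first comparison did not pass (edgeR adjusted p = 0.218). The most abundant others of the list, Anxa1 (annexin A1) and Cybb (the NADPH oxidase core), averaged 23.8 and 10.8 CPM over the 19 libraries and did not pass.

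Most genes of immature granulocytes were too low to test. Of 10 primary granule and progenitor genes 2 were tested and 0 passed. The 2 were the transcription factor gene Cebpa at 7.01 CPM and the haptoglobin gene Hp at 5.18 CPM on average over the 19 libraries. Hp spread widely, at 4.08 ± 5.26 CPM in wild-type PBS hearts (SD), and the part of liver RNA in its level was not tested. Prtn3 (proteinase 3) came next with 34 counts over all 19 libraries. Mpo (myeloperoxidase), Elane (neutrophil elastase) and Ms4a3, named after their values were seen, had 24, 6 and 0 counts over the 19 libraries, beside 249 of Ngp and 1802 of S100a9.

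No gene for the signals that raise and call neutrophils passed in any comparison. Among 11 genes, 10 for growth factors and chemokine or cytokine ligands and 1 for the IL-17 receptor Il17ra, 6 were tested and 4 lay above 0 in the effect of LCWE over both genotypes, with a median of 0.15 on the log2 scale. Cxcl12, which holds neutrophils in marrow, averaged 240 CPM over the 19 libraries, Csf1 53.8 CPM and Il17ra 5.85 CPM. Cxcl5 and Ppbp encode ligands of CXCR2 and are named here after their values were seen. Cxcl5 averaged 0.675 ± 0.755 CPM in knockout LCWE hearts and 0.213 ± 0.0680 CPM in knockout PBS hearts, and 0.587 ± 0.160 CPM in wild-type LCWE hearts against 0.162 ± 0.112 CPM in wild-type PBS hearts (SD). Its log2 fold change for LCWE over both genotypes was 1.69 ± 0.52 (edgeR adjusted p = 0.0677). Ppbp, also a platelet gene, stood at 1.58 ± 0.63 for LCWE in wild type (edgeR adjusted p = 0.772) and at 0.05 ± 0.73 in the knockout. Csf3, Csf2, Cxcl2, Cxcl3 and Il17a were too low to test, with 0 to 42 counts over all 19 libraries. Of 10 genes for receptors of calprotectin and lipocalin 2, 9 were tested and 0 passed, including Bsg (basigin) at 1783 CPM, Emilin1 at 56.8 CPM and Tlr4 at 23.4 CPM on average. The other S100 genes had 8 tested of 12, with 7 above 0 after LCWE over both genotypes, a median of 0.33 and 0 called. S100a1, the cardiomyocyte S100 gene, averaged 719 CPM, S100a16 57.0 CPM and S100a13 39.9 CPM.

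Markers of macrophages and some of other blood cells were also higher after LCWE. All 12 monocyte and macrophage markers were tested, 12 lay above 0 and 7 rose in the effect of LCWE over both genotypes, against 1.35% of all tested genes, with a median of 1.10 on the log2 scale. Their summed level was 470 to 1419 CPM in knockout LCWE hearts, against 184 to 481 CPM in knockout PBS hearts, and 383 to 889 CPM in wild-type LCWE hearts against 346 to 433 CPM in wild-type PBS hearts. Of 7 tested T and NK cell markers 7 lay above 0 and 1 rose, Cd8a (2.13 ± 0.52, edgeR adjusted p = 0.0397), and the sum of 9 such markers was 5.47 to 13.01 CPM in knockout LCWE hearts, against 1.19 to 6.03 CPM in knockout PBS hearts, and 4.01 to 13.1 CPM in wild-type LCWE hearts against 2.004 to 5.73 CPM in wild-type PBS hearts. Of 6 platelet markers 1 rose, Pf4 (1.08 ± 0.28, edgeR adjusted p = 0.0456), and the sum of the 6 was 18.4 to 43.4 CPM in knockout LCWE hearts, against 12.7 to 18.8 CPM in knockout PBS hearts, and 13.7 to 53.9 CPM in wild-type LCWE hearts against 13.99 to 18.6 CPM in wild-type PBS hearts. Of 7 cardiomyocyte markers 5 lay above 0, with a median of 0.09 on the log2 scale, and 1 rose, Actc1 (0.68 ± 0.16, edgeR adjusted p = 0.0370).

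In knockout hearts the 10 further neutrophil markers summed to 6.62 to 24.2 CPM after LCWE, against 7.46 to 14.9 CPM after PBS. The medians were 9.28 and 9.26 CPM. Wild-type hearts gave 6.69 to 14.1 CPM after LCWE, against 4.79 to 6.94 CPM after PBS. The markers were also summed in 2 parts, because Hdc, the histidine decarboxylase gene, made up most of the sum in PBS hearts. This division was chosen after the values were seen. The 9 without Hdc summed to 2.01 to 18.1 CPM in knockout LCWE hearts, against 1.28 to 2.19 CPM in knockout PBS hearts, and to 3.77 to 5.87 CPM in wild-type LCWE hearts against 1.17 to 4.74 CPM in wild-type PBS hearts. Hdc itself was 4.96 ± 1.70 CPM in knockout LCWE hearts and 8.66 ± 3.56 CPM in knockout PBS hearts, and 4.74 ± 2.46 CPM in wild-type LCWE hearts against 3.65 ± 1.12 CPM in wild-type PBS hearts (SD), and it did not pass. Of the 5 tested markers 1 rose over both genotypes, Fpr1. Replicate 4 of the knockout LCWE group ranked 1 of 19 for the macrophage sum and for all 10 neutrophil markers together (24.2 CPM), and 2 for the T and NK cell and the platelet sums. It ranked 18 for the cardiomyocyte sum and 19 for the endothelial sum (955 CPM, beside a median of 1324 CPM). In whole tissue more cells of a type and more RNA per cell cannot be told apart, and the part of macrophages, T cells and platelets in the levels of the calprotectin genes was not tested.

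Genes whose pattern was most like calprotectin were found by Spearman's rho with the mean log2 CPM of S100a8 and S100a9 over the 19 libraries, among 13030 other genes at 1 CPM or more on average. Tlr1 came first with 0.900, followed by Acp5 (0.875), Tmem176a (0.868), Tusc3 (0.865), Wfdc17 (0.863), Clec4a1 (0.861), Tuba1b (0.849) and Fcgr4 (0.837). With the group means taken out, the rho of these 8 ran from 0.296 for Tuba1b to 0.796 for Clec4a1. For the mean of Ngp, Camp and Ltf the first 5 were Abcc3 (0.854), Hacd4 (0.823), Wdr66 (0.818), Otulinl (0.804) and Pdgfrl (0.796).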

How the data were processed

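RNA from heart tissue was converted to cDNA and amplified with a WTA kit before library construction, per the labels' protocols. The deposited values are whole-number counts per gene, not normalized, in 1 table of all 19 libraries, with 0 columns of other samples. The submitters' processing notes name STAR 2.7.8a, limma 3.36.160 and GRCm38 and give no roles for them. No source used here names the counting program, the annotation or any use of strand. Reads of the amplified libraries carry no stated molecular identifiers, so counting intervals would cover counting error only.

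From these counts, genes were kept by filterByExpr (minimum count 10, minimum total 15) and tested in edgeR 4.0.16 (R 4.3.3) by its quasi-likelihood method, robust, with TMM scaling and the 4 groups in 1 model. SE values were taken from the log2 fold change and its F statistic. Alternatives used DESeq2 1.42.0, limma 3.58.1 (voom), sva 3.50.0, other scalings and filters, covariates, subsets of libraries and each library left out in turn. The subunit ratio used an added count of 0.5. Exact permutation tests used SciPy 1.17.1. The procedure was tested on simulated counts. Replicates were numbered in accession order and pair no libraries. Within groups the chi-square per gene between libraries was at least 8.13, so none looked like a duplicate.

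The 10 genes, the other gene lists and the tests were chosen with earlier results of these data known. Named genes of the other lists are those called in any comparison and the 3 with the highest mean, and the genes most alike are the 8 and the 5 with the highest rho. Marker lists for other cell types were also summed. Promoter letters are from RefSeq on GRCm38.p6, in which all 10 genes were matched by symbol.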

Additional observations from a re-analysis of the deposited data

Results flagged for a closer look

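Libraries far from the others of their group were looked for in 33 groups of 5 or 6 libraries. The measure was the gap to the nearest library as a share of the range of the group. Its limits flag about 1 in 20 groups by chance where values are normally distributed. CPM values at low counts need not be, so the chance rate here is not known. Of the 33, 12 were flagged. Replicate 4 of the knockout LCWE group accounts for 8 of them, with S100a8 at 21.4 CPM, S100a9 at 46.96 CPM, Retnlg at 7.52 CPM, Ngp at 7.11 CPM, Camp at 2.57 CPM, Ltf at 4.61 CPM, Lcn2 at 35.4 CPM and Mmp8 at 3.39 CPM. Replicate 2 of the wild-type PBS group stood above its group for Ngp and Camp, each at 0.623 CPM from 10 counts. Replicate 3 of the wild-type LCWE group stood above its group for Csf3r at 5.10 CPM and Mmp8 at 0.680 CPM. The flags within 1 library are not independent of each other, since the genes vary together.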

How the results depend on the processing

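The average effect of LCWE on S100a8, S100a9 and Retnlg kept its direction under every alternative in which each was tested, but the calls did not. The 3 genes called became 7 with DESeq2 and 0 with no filter on low counts, with limma-voom, with limma-voom and library weights, with the number range as a covariate and with the number of genes detected as a covariate. The fewest called of all genes under any of these alternatives was 34. Leaving out 1 library gave 0 to 6 called, and 0 to 2847 over all genes. Among libraries numbered 100 to under 200 there were 7, 6 of them higher and Lcn2 lower, where 30.7% of all tested genes were called. For LCWE in the knockout the 0 called became 4 with DESeq2, 1 within the number range and 0 to 2 on leaving out 1 library. In wild type it became 4 within the number range. The interaction value of Lcn2 in that range was -2.34 ± 0.66 on the log2 scale (SE). Within the range the values for the knockout, for both genotypes and for the interaction rest on 1 knockout PBS library. With no filter more genes are tested, and the cause of the other changes was not tested. No member was called for knockout against wild type under any alternative.

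Lcn2 changed sign most often. Its log2 fold change after LCWE in the knockout became -0.48 with limma-voom, -1.53 with library weights, -0.28 with the number range as a covariate and -2.24 within the range from 100 to under 200. In wild type it became -0.079 with the range as a covariate. Averaged over both genotypes it became -0.0089, -0.46, -0.18 and -1.07 in the same order of settings. For knockout over wild type under LCWE it became -0.75 with library weights. Within the number range that comparison turned negative for all 8 genes, at -1.79 for S100a8, -1.77 for S100a9, -1.55 for Retnlg, -1.68 for Ngp, -1.32 for Camp, -1.12 for Ltf, -1.08 for Lcn2 and -0.60 for Csf3r. Leaving out 1 library gave ranges from -0.47 to 1.73 for S100a8, from -0.49 to 1.66 for S100a9, from -0.22 to 1.68 for Retnlg, from -0.89 to 1.75 for Ngp, from -0.41 to 1.49 for Ltf and from -0.79 to 1.55 for Lcn2 in that comparison, the lowest in each case without replicate 4 of the knockout LCWE group. For Lcn2 after LCWE the ranges were from -1.41 to 1.04 in the knockout and from -0.44 to 0.78 over both genotypes. The log2 subunit ratio ranged from -0.32 to 0.23 for LCWE in wild type and from -0.026 to 0.27 for knockout under LCWE.

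No paired analysis was possible because the sample numbers in the labels are each used once and the replicate numbers given here follow the accession order. Counts of most of these genes were low: in PBS libraries Ngp, Camp and Ltf rested on 0 to 12 counts, Retnlg on 0 to 7, Cxcr2 on 0 to 4 and Mmp8 on 0 to 1. None of these genes passed for knockout against wild type under PBS, where the knockout had 3 libraries. The part of depth in this was not tested. Cxcr2 and Mmp8 were tested with no filter, where neither passed for LCWE over both genotypes (3.19 ± 0.81 and edgeR adjusted p = 0.0513 for Mmp8).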
